A study of Mus musculus with 2 samples.

Results

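Copper enters a cell through Slc31a1 (CTR1), is handed on by small chaperones and leaves through the pump Atp7a, while metallothioneins bind copper and zinc in the cytosol. Described here are 10 mouse genes of this system, chosen by symbol from the 32285 features of each library: the metallothioneins Mt1 and Mt2, the transporters Slc31a1 and Atp7a, the chaperones Atox1, Cox17, Ccs and Sco1, and the copper-handling proteins Commd1 and Memo1. All 10 symbols were found in both libraries. Regulatory T (Treg) cells, the T cells that hold other immune cells in check, had been stained with MitoTracker, a dye taken up by mitochondria, and sorted into a high (Mito-high) and a low (Mito-low) population. Each population gave 1 library of the 10x Genomics 5′ kit V2, which reads the 5′ end of transcripts and tags every RNA molecule with a random barcode, the unique molecular identifier (UMI). By its title, the series asks how copper bears on the suppressive function of these cells. The sources used here do not state the tissue, the strain, sex, age or number of animals, or how the Treg cells were identified before the sort on the dye. With 1 library a population there was no replicate check and no test, and every interval below covers counting error only.

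Free copper is toxic to a cell, so the metal is passed from protein to protein. Atox1 brings it to the pumps of the secretory pathway, Ccs to the superoxide dismutase Sod1, and Cox17 to Sco1, which helps to load cytochrome c oxidase in the mitochondrion. Mt1 and Mt2 are transcribed in response to zinc and other metals through the factor Mtf1 and respond to glucocorticoids and stress as well. Their metal control runs through metal response elements (MRE) in their promoters.

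Cells with at least 500 detected genes and at most 20% of UMIs from mitochondrially encoded genes were kept, 12217 of Mito-high and 11679 of Mito-low, with medians of 6132 and 4668 UMIs. Cells with at least 1 UMI of Igfbp4 are called resting, cells with at least 2 of Ccl5, Il10 and Klrg1 effector, and cells with at least 3 of Pclaf, Birc5, Mki67, Top2a, Rrm2 and Cdca8 cycling. Cells that met none of these rules are called other, and the 120 Mito-high and 11 Mito-low cells that met several stand apart. Resting cells were 2678 (21.9%) of Mito-high and 185 (1.58%) of Mito-low, effector cells 138 (1.13%) and 1522 (13.0%), cycling cells 445 (3.64%) and 30 (0.257%), and other cells 8836 (72.3%) and 9931 (85.0%). The names were held against markers outside the rules. All 8 resting T cell markers were at least 1.5-fold lower, and all 10 effector Treg markers at least 1.5-fold higher, in effector than in resting cells of each library, and 8 of 8 proliferation markers were higher in cycling than in resting Mito-high cells. In other cells of Mito-high, 0 of 8 resting T cell markers were 1.5-fold lower than in resting cells (median log2 ratio -0.43). In Mito-low 7 of 8 were (-1.18). Effector Treg markers at the level called measured below were higher in other than in resting cells, 7 of 7 in Mito-high and 9 of 9 in Mito-low. Foxp3, the defining Treg factor, was at 25.8 UMIs per 1000000 (CPM) for Mito-high and 41.0 for Mito-low. The libraries shared 38 barcodes. Cells with 4 or more of 8 B cell markers numbered 26 in Mito-high and 0 in Mito-low.

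Of the members, the metallothioneins had the largest differences between effector and resting cells, as described below. Their promoters are shown because the MRE is where their best known control acts. Mt2 lies at chr8:94172664-94173568 and Mt1 at chr8:94179082-94180327 of GRCm38, both on the plus strand with 5513 bases between them. Their longest transcripts share no run over 20 bases. The 250 bases before each RefSeq start (GRCm38.p6) follow 5′ to 3′, on the plus strand at chr8:94172368-94172617 for Mt2 and chr8:94178839-94179088 for Mt1, with matches to the MRE core in capitals.
Mt2 promoter: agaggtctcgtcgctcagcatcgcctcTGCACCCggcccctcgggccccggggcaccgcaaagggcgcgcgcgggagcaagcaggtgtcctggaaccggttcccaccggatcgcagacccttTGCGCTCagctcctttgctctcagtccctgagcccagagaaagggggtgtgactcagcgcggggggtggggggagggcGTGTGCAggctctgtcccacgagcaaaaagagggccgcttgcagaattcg
Mt1 promoter: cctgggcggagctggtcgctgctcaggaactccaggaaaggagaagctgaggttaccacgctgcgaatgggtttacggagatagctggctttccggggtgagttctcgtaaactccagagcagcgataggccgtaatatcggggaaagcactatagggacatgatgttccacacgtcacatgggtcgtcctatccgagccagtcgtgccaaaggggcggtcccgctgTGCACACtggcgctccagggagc

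The MRE core was searched as TGCGCNC or TGCACNC on both strands. Mt2 had 3 matches, at bases -223 to -217, -128 to -122 and, on the minus strand, -50 to -44 from the start, and Mt1 had 1, at -23 to -17. Of 32851 RefSeq promoter windows of this length, 21.4% held at least 1 match, 5.17% at least 2 and 1.26% at least 3. Of the members, 8 had a window, and Commd1 had 2. Atp7a held 2 matches and each Commd1 window 1, while the windows of Slc31a1, Atox1, Sco1 and Memo1 held 0. Cox17 and Ccs had no entry. The core of the antioxidant response element, searched as TGACNNNGC on both strands, was found once in the windows of Mt2 and Atox1 and 2 times in 1 Commd1 window, against 10.2% of all windows with at least 1. The Mt1 window ends 6 bases past the start of transcript Mt1-201 but 123 and 153 bases before those of Mt1-203 and Mt1-202, so it is not the proximal promoter of these. The bases up to those 2 starts were not searched, so the counts do not compare the whole promoters of Mt1 and Mt2. The Mt2 window ends at 94172617, before the GENCODE start at 94172664. The Memo1 window and 1 of the 2 Commd1 windows lie inside the GENCODE gene. A match is a string of letters and no measured site.

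Mt1, which encodes the ubiquitous metallothionein 1, had widely different levels over the states. In Mito-high it was at 10.0 CPM in resting, 21.2 in other, 38.8 in cycling and 152 in effector cells, from 196, 1257, 296 and 192 UMIs. In Mito-low it was at 9.80 CPM in resting, 38.6 in other, 46.1 in cycling and 133 in effector cells, from 11, 1917, 14 and 1229 UMIs. The order of the states was the same in both libraries, with effector cells highest and resting cells lowest, and only the intervals of other and cycling cells of Mito-low overlapped (36.9 to 40.3 and 25.2 to 77.4 CPM). Mt2, its close homologue, was at 1.23 CPM in resting, 1.44 in other, 3.80 in cycling and 18.95 in effector cells of Mito-high, from 24, 85, 29 and 24 UMIs. In Mito-low it was at 2.74 CPM in other and 15.9 in effector cells, from 136 and 147 UMIs, with 0 UMIs in resting and cycling cells. For resting cells a limit of 3 UMIs stands at 2.67 CPM, and the upper end of the Poisson interval at 3.29 CPM. Both metallothioneins were therefore highest in the cells chosen by Ccl5, Il10 and Klrg1.

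**Figure D1:**
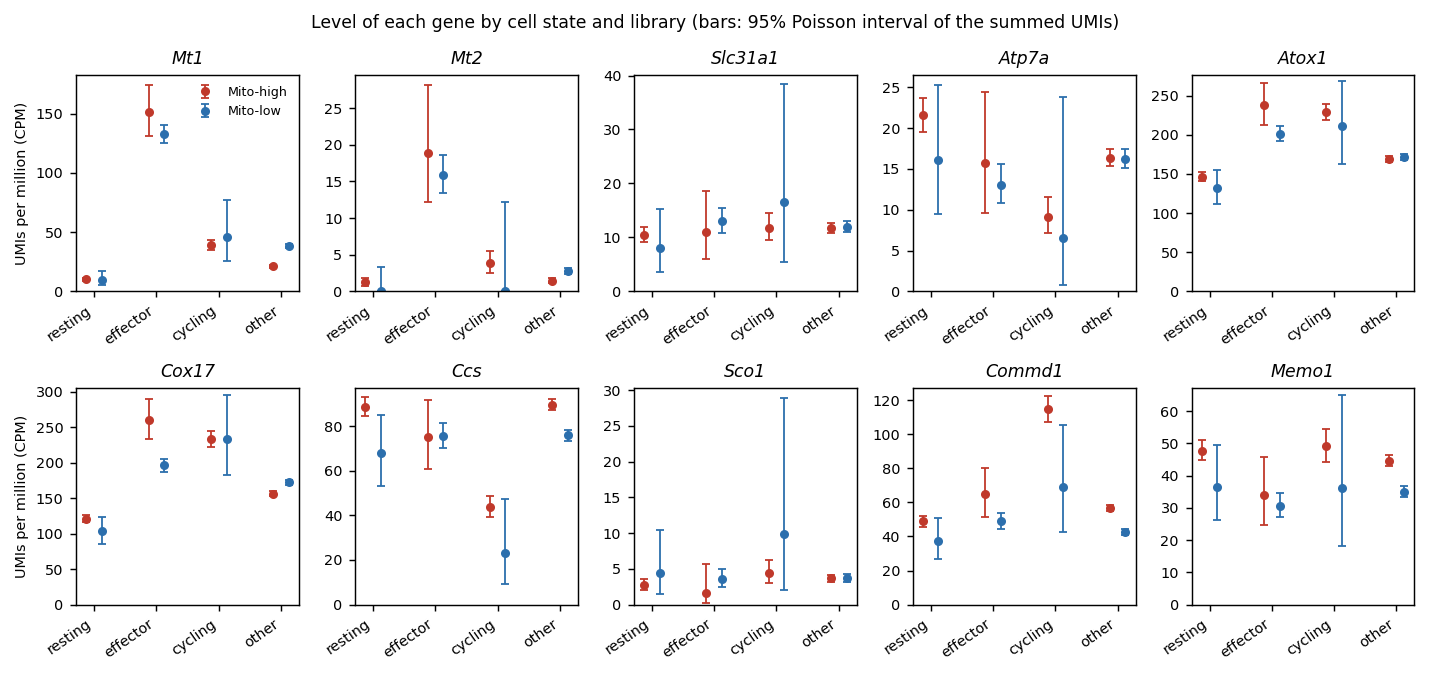
Level of each gene in UMIs per 1000000 (CPM) (linear axis from 0) by cell state, with Mito-high in red and Mito-low in blue and bars for the 95% Poisson interval of the summed UMIs, 1 library each. Mt1 at 152 and 133 CPM and Mt2 at 18.95 and 15.9 CPM stand far above their other states in effector cells, while Slc31a1 stays between 8.02 and 16.5 CPM.

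The copper importer Slc31a1 was nearly level over the states. It was at 10.4, 11.7, 11.8 and 11.1 CPM in resting, other, cycling and effector cells of Mito-high, and at 8.02, 11.97, 16.5 and 13.0 in Mito-low, and all 8 intervals overlapped. The exporter Atp7a, mutated in Menkes disease, was at 21.6 CPM in resting, 16.4 in other, 15.8 in effector and 9.16 in cycling cells of Mito-high, from 421, 969, 20 and 70 UMIs. Mito-low cells were at 16.0, 16.2, 13.1 and 6.59 CPM in the same order, and the cycling value rests on 2 UMIs. Cycling cells were thus lowest for the exporter in both libraries, but the intervals of the 4 Mito-low states overlapped.

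Atox1, which carries copper to Atp7a, was at 147 CPM in resting, 169 in other, 229 in cycling and 238 in effector cells of Mito-high. The Mito-low values were 132, 171, 211 and 202 CPM in the same order. Cox17, the copper donor of the mitochondrial intermembrane space, was at 121, 156, 233 and 261 CPM in Mito-high and at 103, 172, 234 and 197 in Mito-low. Both chaperones were lowest in resting cells, and the intervals of effector and cycling cells overlapped in each library. Ccs, the chaperone of Sod1, was at 88.7 CPM in resting, 89.5 in other, 75.0 in effector and 43.6 in cycling cells of Mito-high, and at 67.7, 75.8, 75.6 and 23.1 in Mito-low, the last from 7 UMIs. Ccs was lowest in cycling cells in both libraries. Sco1, a copper-binding assembly factor of cytochrome c oxidase, was scarce at 1.58 to 4.45 CPM in Mito-high and 3.57 to 9.89 CPM in Mito-low. Its highest value rests on 3 UMIs and its lowest on 2, so no order of states could be read for Sco1.

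Commd1, which acts in the traffic and stability of copper pumps, was at 48.9 CPM in resting, 56.6 in other, 64.7 in effector and 115 in cycling cells of Mito-high. The Mito-low values were 37.4, 42.5, 49.0 and 69.2 CPM in the same order, so cycling cells were highest in both, with overlapping intervals in Mito-low (42.8 to 106 CPM against 44.6 to 53.7 in effector cells). Memo1, a copper-binding protein with a role in cell migration, was at 47.7, 44.5, 34.0 and 49.1 CPM in these states of Mito-high and at 36.5, 34.95, 30.7 and 36.2 in Mito-low. Effector cells had the lowest Memo1 values in both libraries, within the interval of the resting cells in Mito-low and also touching it in Mito-high (24.6 to 45.7 against 44.7 to 50.9 CPM). Levels of different genes were not compared, since counts were not scaled by length.

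Effector cells were then set against resting cells of their own library. A gene was taken as measured at a mean of at least 10 CPM and at least 20 UMIs over both groups, and as apart at 1.5-fold or more. In Mito-high 4 of 9 measured members were higher and 0 lower, beside 23.5% higher and 9.77% lower (33.3% in all) of 7203 measured genes. Mt1 was 14.97-fold higher (log2 ratio 3.90, 95% interval 3.62 to 4.21), Mt2 14.4-fold (3.85, 3.07 to 4.83), Cox17 2.15-fold (1.10, 0.93 to 1.27) and Atox1 1.63-fold (0.70, 0.53 to 0.87). Of the 24 Mt2 UMIs in effector cells of Mito-high, 10 came from 1 cell, so the Mt2 interval is too narrow. In Mito-low 4 of 8 were higher and 0 lower, beside 24.4% higher and 7.83% lower (32.2% in all) of 7354 genes. Mt1 was 13.3-fold higher (3.73, 2.92 to 4.77), Cox17 1.90-fold (0.93, 0.66 to 1.21), Atox1 1.53-fold (0.61, 0.37 to 0.86) and Slc31a1 1.60-fold (0.68, -0.28 to 1.86), with 0 inside the interval. Mt2 was at least 5.94-fold higher in effector cells, against the limit of 3 UMIs in all resting Mito-low cells, and the lower end of the 95% interval of its log2 ratio was 2.26. The median log2 ratio of the measured members was 0.41 in Mito-high and 0.50 in Mito-low, beside 0.18 and 0.20 over all measured genes. Scaling changed the smaller calls: in Mito-low Atox1 and Slc31a1 fell short of 1.5-fold under each of the other scalings, leaving Mt1 and Cox17. In Mito-high Atox1 too fell short under each, and came to 0.43 under trimmed-mean (TMM) scaling.

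**Figure D2:**
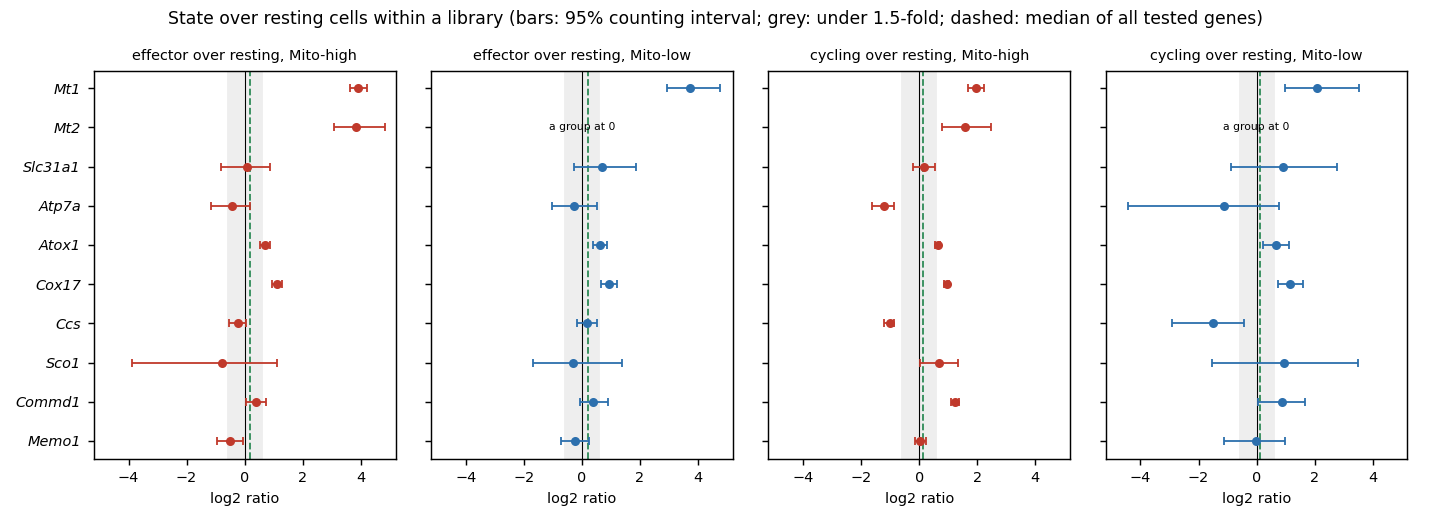
Log2 ratio of effector and of cycling over resting cells within each library, with 95% counting intervals, the range under 1.5-fold in grey, 0 as a solid line and the median of all measured genes dashed. Mt1 lies at 3.90 and 3.73 in effector and at 1.94 and 2.08 in cycling cells, Atp7a and Ccs lie below 0 in cycling cells, and no ratio is drawn for Mt2 where a group had 0 UMIs.

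The effector difference of Mt1 was also present between cells of like depth. Among cells of 4000 to 6000 UMIs it was at 210 CPM (145 to 295) in 30 effector and 5.65 CPM (3.79 to 8.12) in 1010 resting cells of Mito-high, and at 155 CPM (141 to 170) in 606 effector cells of Mito-low, where 72 resting cells held 1 UMI. A UMI of Mt1 was found in 47.1% of effector and 4.59% of resting cells of Mito-high and in 31.5% and 3.24% in Mito-low. With every cell thinned to 2000 UMIs these shares were 23.9% and 1.42%, and 17.1% and 0.556%. Of the 26 cells with 4 or more B cell markers, 2 had an Mt1 UMI (7.69%, interval 0.946 to 25.1%) at a median of 3401 UMIs. The unthinned shares in resting cells lay below that value and inside its interval, so they cannot be told apart from it. Whether the Mt1 UMIs of the 26 cells are background was not tested, and 8 of these cells (30.8%) held a UMI of Cd3e. The unthinned shares in effector cells lay above the interval of the 26 cells, but those effector cells were deeper. The thinned shares of 23.9% and 17.1% lay inside it, but at 2000 UMIs a cell, below the median of 3401. All 26 of these cells came from Mito-high. An Mt2 UMI was found in 8.70% of effector and 0.896% of resting cells of Mito-high, and in 5.85% and 0% in Mito-low. With cells thinned to 2000 UMIs, the Mito-high shares of Mt2 were 0.725% (interval 0.018 to 3.97%) and 0.300% (0.130 to 0.590%). In Mito-low they were 2.5% (1.80 to 3.46%) and 0% (0 to 2.03%). The thinned Mt2 intervals overlapped in both libraries, so the Mt2 difference was not resolved at that depth.

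Markers of other cells were also higher in effector than in resting cells. The 8 B cell markers summed to 167 against 48.7 CPM for Mito-high and 156 against 26.7 for Mito-low, of which Cd74 made 146 and 34.0, and 128 and 19.6 CPM. In effector cells of Mito-high 5 of the 8 B cell markers were at 0, among them Cd79a and Ms4a1. The 8 myeloid markers summed to 122 against 63.9 and 126 against 73.1 CPM, nearly all from Cst3, with 6 of 8 at 0 in effector cells of Mito-high. Without cells that held 2 or more B cell markers, Mt1 was at a log2 ratio of 3.89 in Mito-high and 3.76 in Mito-low. Of proliferation markers, 4 of 4 measured were higher in effector than in resting cells of Mito-high (median 2.25) and 0 of 1 in Mito-low. The part of myeloid and of dividing cells in the result was not tested.

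The 3 genes of the effector rule were counted singly. In Mito-high Mt1 was at 17.3 CPM in other cells with 0 of them and 45.7 with 1, and at 147 in effector cells with 2 and 183 with all 3. In Mito-low it was at 24.5, 61.9, 123 and 178 CPM over the same steps. The level was higher at each step in both libraries, with overlapping intervals at the last step of Mito-high (125 to 171 and 125 to 258 CPM). Mt2 followed with 1.24, 2.67, 18.3 and 22.9 CPM in Mito-high and 1.09, 5.47, 14.4 and 23.3 in Mito-low. Among cells with 2 of the genes, Il10 with Klrg1 came with the highest Mt1, at 176 and 166 CPM, against 131 and 90.7 for Ccl5 with Klrg1 and 116 and 97.48 for Ccl5 with Il10. Among cells with 1 of them, Klrg1 came with 83.8 and 75.6 CPM, Il10 with 35.1 and 61.0, and Ccl5 with 33.8 and 52.9. Klrg1, an inhibitory receptor of differentiated lymphocytes, was thus the gene whose detection alone came with most Mt1, but Klrg1 with Ccl5 was not above Il10 with Ccl5 in Mito-low. The median depth over the 4 steps was 5704, 7104.5, 8484 and 6463 UMIs in Mito-high and 4467, 4747, 5214 and 5916 in Mito-low.

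**Figure D3:**
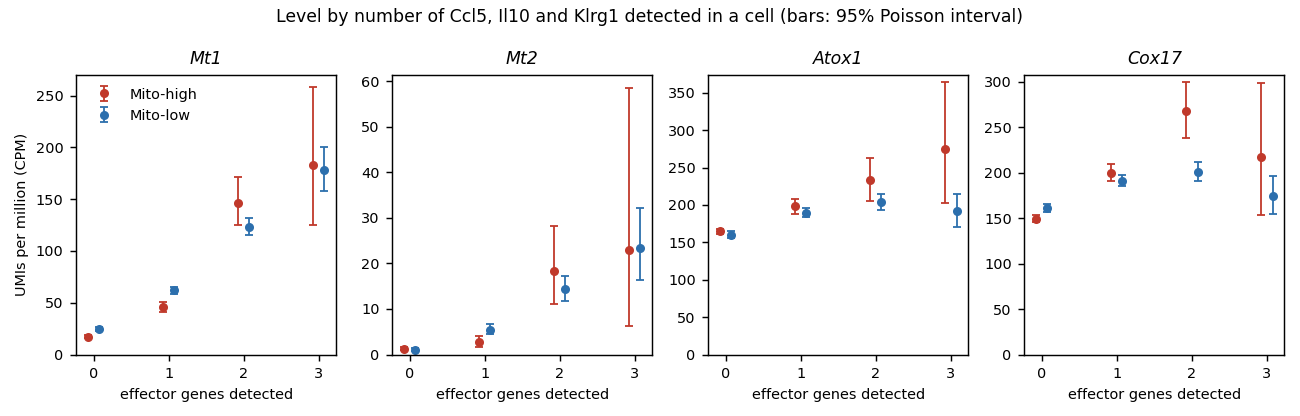
Levels of Mt1, Mt2, Atox1 and Cox17 in UMIs per 1000000 (CPM) by how many of Ccl5, Il10 and Klrg1 a cell held (0 and 1 in other cells, 2 and 3 in effector cells), with 95% Poisson intervals, Mito-high in red and Mito-low in blue. Mt1 goes from 17.3 to 183 CPM and from 24.5 to 178 CPM, and Cox17 is highest at 2 genes, with 268 and 201 CPM.

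In cycling cells, 4 of 8 measured members were higher and 2 lower than in resting cells of Mito-high, beside 25.4% higher and 13.5% lower (38.9% in all) of 7238 genes. Commd1 had a log2 ratio of 1.23 (1.10 to 1.36), Mt1 of 1.94 (1.68 to 2.22), Cox17 of 0.94 (0.85 to 1.03) and Atox1 of 0.64 (0.56 to 0.73), while Atp7a had -1.23 (-1.62 to -0.87) and Ccs -1.02 (-1.20 to -0.85). Mito-low gave the same 6 genes in the same directions out of 7 measured, beside 27.1% higher and 18.5% lower (45.6% in all) of 6372 genes, from 30 cycling and 185 resting cells. There Mt1 was at 2.08 (0.99 to 3.52), Cox17 at 1.17 (0.73 to 1.62), Commd1 at 0.86 (0.06 to 1.67), Atox1 at 0.67 (0.23 to 1.11), Ccs at -1.50 (-2.92 to -0.44) and Atp7a at -1.13, with an interval of -4.44 to 0.78. Atox1 fell short of 1.5-fold in both libraries under each of the other scalings. B cell markers summed to 122 against 48.7 CPM in cycling and resting cells of Mito-high and to 95.6 against 26.7 CPM in those of Mito-low. Without cells that held 2 or more of them, 6 members were apart in each library, with Mt1 at 1.89 and 1.78 and Commd1 at 1.24 and 0.81. Cycling cells were the deepest, with medians of 16452 and 9936 UMIs. With all cells thinned to 2000 UMIs, Commd1 came to 1.37 and Ccs to -1.63 in Mito-high. In Mito-low Ccs came to -0.52, under 1.5-fold, thinned cycling cells held 0 Mt1 UMIs, and Atox1, Cox17 and Commd1 were the 3 members apart. Depth and state cannot be fully told apart here.

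Other cells, the bulk of both libraries, lay between resting and effector cells for Mt1. Over resting cells Mt1 was at 1.08 (0.86 to 1.31) in Mito-high, as the 1 of 8 measured members that was apart, beside 3.73% higher and 0.397% lower (4.13% in all) of 7054 genes. In Mito-low 2 of 7 were higher, Mt1 at 1.97 (1.13 to 2.98) and Cox17 at 0.74 (0.47 to 1.01), beside 17.3% higher and 4.08% lower (21.4% in all) of 7296 genes.

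Between the libraries as a whole, 1 of 8 measured members was apart, beside 13.7% of 7358 genes (3.47% higher and 10.3% lower in Mito-high), and the median of the 8 was 0.03 beside -0.15 for all genes. Mt1 was 2.35-fold higher in Mito-low (22.3 against 52.5 CPM, log2 ratio, first over second, of -1.23, interval -1.31 to -1.15). Mt2, too low to count as measured, pointed the same way with 1.85 against 4.71 CPM (-1.34, -1.64 to -1.07). Commd1 was at 61.5 against 43.6 CPM (0.50, 0.43 to 0.56) and Memo1 at 45.9 against 34.3 CPM (0.42, 0.34 to 0.50). Of the other members, Ccs had 0.16, Atp7a 0.10, Atox1 -0.04, Slc31a1 -0.07, Sco1 -0.08 and Cox17 -0.15. The other scalings raised every ratio by 0.13 to 0.19, which brought Commd1 past 1.5-fold under each (0.68 under TMM scaling), Memo1 under TMM scaling (0.61), and turned the signs of Slc31a1, Atox1 and Sco1 under each and of Cox17 under TMM scaling (0.03). The Commd1 difference moved with depth: among cells of 4000 to 6000 UMIs it was at 45.9 against 40.6 CPM.

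**Figure D4:**
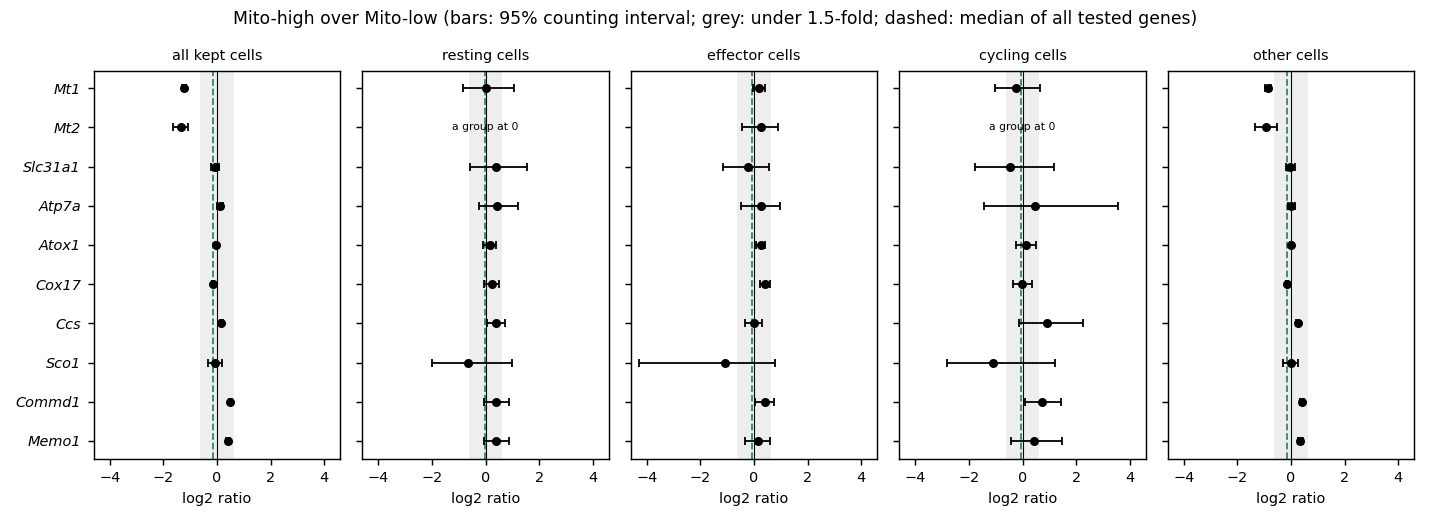
Difference between libraries for each gene, as the log2 ratio of Mito-high to Mito-low, over all kept cells and within each state, with 95% counting intervals, the range under 1.5-fold in grey, 0 as a solid line and the median of all measured genes dashed. Mt1 lies at -1.23 over all cells and at -0.86 in other cells but at 0.03 in resting and 0.19 in effector cells. The resting value rests on 11 Mito-low UMIs, 6 of them from 1 cell.

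Within states the metallothionein difference was not uniform. In resting cells Mt1 was at 10.0 against 9.80 CPM (0.03), and the interval of -0.84 to 1.06 is wide because Mito-low gave 11 UMIs. Of these, 1 cell held 6. After thinning the ratio in resting cells was 1.43, with an Mt1 UMI left in 1 of 180 Mito-low cells. In effector cells Mt1 was at 152 against 133 CPM (0.19, -0.04 to 0.41), and Mt2 at 18.95 against 15.9 CPM (0.25, -0.43 to 0.88). With states assigned on thinned cells these ratios were -0.20 and -0.63. Without cells of 10 or more Mt1 UMIs, Mt2 was at 0.62. In cycling cells the Mt1 interval of -1.02 to 0.64 includes 0, and in other cells Mt1 was at 21.2 against 38.6 CPM (-0.86, -0.96 to -0.76) and Mt2 at -0.92 (-1.34 to -0.53). Among the states, only other cells had an Mt1 interval that excluded 0. The cycling interval also holds the -0.86 of other cells. By markers, the cells of a state were not alike in both libraries. In other cells of Mito-high, 8 of 9 measured effector Treg markers were lower and 6 of 8 resting T cell markers higher. Of all measured genes there, 8.56% were lower and 2.52% higher. In effector cells of Mito-high, 5 of 8 resting T cell and 4 of 4 proliferation markers were higher, beside 6.64% of all genes. Of 10 effector Treg markers there, 1 was higher and 2 lower. The shares of the states differed between the libraries as well, and the part of each in the difference was not tested. Effector cells gave 9.56% of the Mt1 UMIs of Mito-high and 38.7% of those of Mito-low. With each state given the same weight in both libraries (the mean of its 2 shares of UMIs), Mt1 was at 31.7 and 43.5 CPM (-0.46) and Mt2 at -0.24. Among other cells with none of Ccl5, Il10 and Klrg1, an alternative added after seeing the data, Mt1 was at -0.51 and Mt2 at 0.17.

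Of measured members, 0 of 6 were apart between the libraries in resting cells (beside 11% of 6991 genes, 4.31% higher and 6.74% lower), 0 of 9 in effector cells (18.4% of 7437, 6.64% higher and 11.8% lower), 2 of 7 in cycling cells (36.4% of 7349, 16.1% higher and 20.3% lower) and 1 of 8 in other cells (11.1% of 7350, 2.52% higher and 8.56% lower). The 2 in cycling cells were Commd1 (0.73, 0.11 to 1.43) and Ccs (0.91, -0.14 to 2.24), and after thinning they came to 0.09 and -0.18. Commd1 had ratios of 0.38, 0.40 and 0.41 in resting, effector and other cells and was above 0 in every state. It did not stay so at like depth: among cells of 4000 to 6000 UMIs Commd1 was at 19.1 against 45.0 CPM in effector cells (-1.21), the first from 3 UMIs, and after thinning the ratio in resting cells was -0.06. Cox17 was at 0.41 (0.23 to 0.58) in effector and -0.14 (-0.18 to -0.10) in other cells. Under TMM scaling its ratio in other cells was 0.02.

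The Mt1 difference varied with the depth of the cell. Over all Mito-high cells Mt1 was at 9.49, 9.13 and 11.02 CPM in cells of under 3000, 3000 to 4000 and 4000 to 6000 UMIs, and at 25.7, 29.1 and 28.3 CPM in cells of 6000 to 10000, 10000 to 15000 and over 15000. In Mito-low it was at 43.7, 49.3, 55.5, 54.5, 48.4 and 43.9 CPM over the same bins. The library difference was thus largest in shallow and middle cells, with a log2 ratio of -2.32 among cells of 4000 to 6000 UMIs. The same held in other cells, at 10.7 against 41.0 CPM in that bin and 28.5 against 31.3 CPM between 10000 and 15000 UMIs, where the intervals overlapped. In effector cells, in contrast, Mt1 was lower in deeper cells, at 155 CPM between 4000 and 6000 UMIs and 60.1 CPM over 15000 in Mito-low, and at 210 CPM and, between 10000 and 15000 UMIs, 125 CPM in Mito-high.

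**Figure D5:**
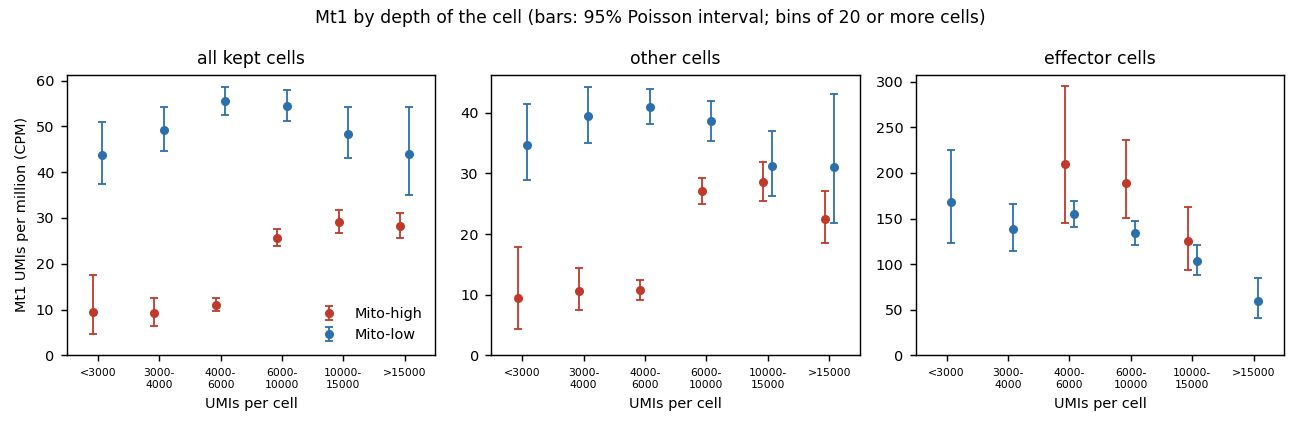
Mt1 in UMIs per 1000000 (CPM) by the depth of the cell (bins of UMIs per cell with at least 20 cells), over all kept, other and effector cells, with 95% Poisson intervals, Mito-high in red and Mito-low in blue. Mito-high goes from 11.02 CPM to 25.7 CPM between the bins on either side of 6000 UMIs, while Mito-low stays between 43.7 and 55.5 CPM.

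Mt1 UMIs were unevenly spread over cells. The variance of its UMIs per cell over their mean was 3.56 for Mito-high and 5.19 for Mito-low, and that of Slc31a1, a gene with fewer UMIs, was 1.18 in both. Mt2 was at 1.82 and 2.97, and the highest of the remaining members were Cox17 at 2.03 in Mito-high and Atp7a at 1.56 in Mito-low. In effector cells Mt1 was at 3.87 and 5.40 and Mt2 at 4.83 and 3.27. The intervals of sums and ratios treat UMIs as independent, so those of Mt1 and Mt2 are too narrow for counts clustered in cells. In Mito-high 11 cells had 10 or more Mt1 UMIs, with 31 in the highest, and held 7.02% of all its UMIs. In Mito-low 22 such cells, with up to 55, held 12.6%. Without these cells the library ratio of Mt1 was -1.14. Mt2 was detected more often in cells with Mt1, although most cells with Mt1 had no Mt2: in Mito-high 6.86% of cells with Mt1 (interval 5.42 to 8.55%) and 0.574% of those without (0.442 to 0.732%) had an Mt2 UMI, and in Mito-low 7.97% (6.67 to 9.45%) and 0.621% (0.477 to 0.794%). Cells with Mt1 were deeper, at medians of 8979.5 against 5953 and 5417 against 4564 UMIs. Within Mito-low effector cells, at 5897 against 5028 UMIs, the shares were 15.03% and 1.63%.

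Other genes of copper and metal handling were compared between the libraries over all cells, where 3.47% of all measured genes were higher and 10.3% lower in Mito-high. There, 0 of 7 further genes of membrane copper transport reached the level to be measured. Of 12 genes of mitochondrial copper delivery 10 were measured and 0 were apart (median 0.01), with Cox19 at 0.42, Coa6 at 0.33 and Cox11, which inserts copper into cytochrome c oxidase, at -0.35. Of 19 copper enzymes and copper-binding proteins 5 were measured and 0 apart (median -0.38), with Sod1, the client of Ccs, at 90.3 against 118 CPM (-0.39), Prnp at -0.38 and Xiap at -0.40. Of 12 genes of the COMMD family and its partners 9 were measured and 0 apart (median 0.10), with Commd8 at 0.56, Commd2 at 0.34 and Ccdc22, below that level, at 0.47. Medians stand beside -0.15 over all genes.

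Genes known for the same inputs as Mt1 were looked at as lists. Of 20 genes of the metal response and zinc transport 9 were measured and 1 was apart, the zinc importer Slc39a6, at 7.21 against 13.4 CPM (-0.89). Mtf1 itself was at 13.7 against 15.7 CPM, and the zinc exporter Slc30a1, another of its targets, at 14.97 against 16.7 CPM. In effector and resting cells Slc30a1 was at 17.4 and 17.4 CPM in Mito-high and 15.4 and 18.7 in Mito-low. The part of Mtf1 in the levels of Mt1 was not tested. Of 8 glucocorticoid-induced genes 7 were measured, 2 were lower in Mito-high, Fkbp5 at -1.05 and Dusp1 at -0.66, and the median was -0.44, with Per1 at -0.52. In effector over resting cells 3 of 7 were higher and 1 lower in Mito-high and 4 and 1 in Mito-low, beside 23.5% and 9.77%, and 24.4% and 7.83%, of all measured genes. Fkbp5, a chaperone of steroid receptors, was at 1.60 and 1.42 there, Dusp1 at 0.13 and 1.01 and Per1 at -0.21 and 0.50. Medians of the measured genes of this list were 0.13 and 0.70 there, beside 0.18 and 0.20 over all genes. Of 8 Nrf2 target genes 3 were measured and 0 apart (median -0.28), with Gclm at 0.38 and Gclc at -0.32, and Osgin1, below that level, at 3.01 against 11.45 CPM. Of 11 genes of copper-induced cell death and lipoylation 9 were measured and 2 were higher in Mito-high, Gcsh at 0.61 and Fdx1 at 0.59, with Pdha1 at 0.22 (median 0.03).

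The genes most like Mt1 were sought by the Pearson correlation of log2 (CPM + 1) over the 8 sums of library and state, among 5787 genes. The sums share libraries and depth, and the value is a description only. Closest were Agpat4, an acyltransferase of lipid synthesis (r = 0.990), Pqlc1 (0.988), Slc9a3r1, a scaffold protein (0.987), Frmd4b (0.982) and Sema4d, a semaphorin of lymphocytes (0.982). Agpat4 was at 14.4 and 13.4 CPM in resting and 54.5 and 57.7 CPM in effector cells of Mito-high and Mito-low. Klrg1 and Il10, which the effector rule used, were at 0.97 and 0.94, Mt2 at 0.82 and Ccl5 at 0.79.

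Some members overlap other annotated genes in GENCODE, and the sources used here do not state whether counting used the strand. Commd1 shares exonic bases with Zrsr1 on the opposite strand and Mt2 with the antisense gene Gm45774, which had 0 UMIs. Zrsr1 was at 13.0 against 31.2 CPM (-1.26), opposite to that of Commd1.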

How the data were processed

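Each deposited matrix holds whole-number UMI counts of genes by barcodes, per the file headers. The matrices were made with Cell Ranger 7.1.0 on mm10, and Seurat 4.3.0.1 is also named, per the submitters' processing notes. The sources used here do not state the annotation release, whether intronic reads were counted or how barcodes were selected. The libraries held 12352 and 11901 barcodes and 89996794 and 60688904 UMIs. No doublet caller was run, and free RNA was not removed.

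UMIs were summed per library and state and scaled to counts per 1000000 (CPM). Log2 ratios used a pseudo-count averaging 1 and proportional to each total. Sums have exact Poisson, shares exact Clopper-Pearson and ratios exact conditional binomial 95% intervals. Thinning drew 2000 UMIs per cell, and 139 and 491 shallower cells were left out. The other scalings were TMM (edgeR 4.0.16 in R 4.3.3), the median ratio set to 0, and totals without mitochondrial, ribosomal, T cell receptor and immunoglobulin genes. Python 3.11.15 was used, and the calculations were tested on simulated data.

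Named are all 10 members, of every other list at most 3 genes with the largest absolute library ratio among those at 10 CPM or more in a library, and the 5 genes most like Mt1. Mtf1 and Slc30a1 were named as the regulator of Mt1 and its other target, and Klrg1, Il10 and Ccl5 belong to the rule for effector cells. Zrsr1 and Gm45774 were named for their overlap with members, after their values were seen. The members and lists were chosen with earlier results of these data known. Promoter windows and gene positions come from RefSeq and GENCODE vM21.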

Additional observations from a re-analysis of the deposited data

Results flagged for a closer look

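Cox17 differed between the libraries in opposite directions in effector and other cells, with log2 ratios of 0.41 and -0.14, each with an interval that excludes 0. The difference between these ratios was not tested, since each rests on 1 library a population, and TMM scaling turned the second to 0.02.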

How the results depend on the processing

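No paired analysis was possible because each population has 1 library. Counts of measured members at least 1.5-fold apart moved in these cases, among others. Between all cells the count was 1, and 3 under TMM scaling, 2 with the median ratio set to 0 and 2 without mitochondrial, ribosomal, T cell receptor and immunoglobulin genes. With equal state weights Mt1, the 1 member apart between all cells, fell short of 1.5-fold at -0.46. Within other cells it fell short, at -0.51, once cells with effector genes were left out. In resting cells the count was 0, and 1 after thinning. In effector cells it was 0, and 2 after thinning, 3 among cells of 4000 to 6000 UMIs, 2 with states assigned on thinned cells and 1 without cells of 10 or more Mt1 UMIs. In cycling cells it was 2, and 1 after thinning (Mt1, at 0 UMIs in thinned Mito-low cells, in place of Commd1 and Ccs) and 1 with cells of several states given to the first. For effector over resting cells of Mito-low it was 4, and 2 under each of the 3 other scalings. For cycling over resting cells of Mito-low it was 6, and 3 after thinning, and for other over resting cells of Mito-low 2, and 1 with the median set to 0 and 1 without the gene classes above. Atox1 fell short under each of the 3 other scalings for effector over resting cells of Mito-high and for cycling over resting cells of both libraries. Ccs between cycling cells turned from 0.91 to -0.18 after thinning. In cells of 4000 to 6000 UMIs cycling cells were too few for a value. Mt1 stayed below 0 between all cells under every alternative run, from -2.32 (4000 to 6000 UMIs) to -0.46 (equal state weights), and its effector over resting ratio lay between 3.64 and 5.13 in Mito-high and 3.48 and 5.51 in Mito-low. The alternatives without cells rich in Mt1 and with other cells lacking effector genes were chosen after seeing the data. Low UMI counts limit Mt2 and Sco1, and few cells (185 and 30) limit all resting and cycling values of Mito-low.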

Other observations

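Zrsr1, which overlaps Commd1 on the opposite strand, was lower in Mito-high than in Mito-low in each state. It was at 12.1 against 24.95 CPM in resting, 18.2 against 42.6 in effector, 6.42 against 26.4 in cycling and 14.1 against 29.4 CPM in other cells. The log2 ratios were -1.04, -1.22, -2.00 and -1.05, each with an interval below 0. The cycling value of Mito-low rests on 8 UMIs. Commd1 had ratios above 0 in the same states, but of -1.21 in effector cells of 4000 to 6000 UMIs and -0.06 in thinned resting cells. Zrsr1 was singled out after its values were seen.

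Osgin1, an Nrf2 target gene, was at 3.16 against 19.9 CPM in effector cells of Mito-high and Mito-low. Its log2 ratio was -2.58, from 4 and 184 UMIs, while Mt1 and Mt2 were at 0.19 and 0.25 between these cells. With states assigned on thinned cells Mt1 and Mt2 were at -0.20 and -0.63. Hmox1, another Nrf2 target named after its values were seen, was at 1.02 CPM in resting and 11.1 in effector cells of Mito-high. These rest on 20 and 14 UMIs. In Mito-low it was at 8.11 CPM in effector cells, and resting cells held 2 UMIs. Of measured Nrf2 targets, 1 of 3 was higher in effector than resting cells of Mito-high and 0 lower (median -0.16). In Mito-low 2 of 4 were higher and 0 lower (median 0.64). Beside these stand 23.5% higher and 9.77% lower of all measured genes (median 0.18), and 24.4% and 7.83% (0.20). Gclm was at -0.35 and -0.52 there, Gclc at -0.16 and 0.10, and Osgin1 at -0.03 and 2.81.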
